A study of Mus musculus with 6 samples.

Results

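Of the 52550 genes in the count table, 8 are described here: Unc79, Unc80, Nalcn, Grid1, Dnajc6, Gak, Ptchd4 and Ptchd1, each found by its symbol. Unc79, Grid1, Dnajc6 and Ptchd4 were chosen because they had few counts in the A2B1 libraries, so their contrast is given as a description and is not tested. Unc80 and Nalcn were added as partners of Unc79, Gak as the paralog of Dnajc6, and Ptchd1 as the relative of Ptchd4. RNA was sequenced from inguinal white adipose tissue, a subcutaneous fat depot, of C57BL/6 mice. In the A2B1 group the depot had received an adeno-associated virus (AAV) to overexpress mouse Hnrnpa2b1 from its coding sequence; its product is an hnRNP protein that binds RNA and takes part in splicing. In the control group it had received an AAV labelled as scrambled control, which the series' design text calls AAV GFP. Each group held 3 libraries, named A2B1 1 to 3 and control 1 to 3. No gene deletion or cell-type-specific promoter is stated for either group, and the source is labelled as adipocytes although whole tissue was frozen and extracted. No source used here states age, sex or viral dose. Whether each library is a different animal is also unstated, and p-values therefore measure only the spread between these libraries.

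NALCN is the pore of a sodium leak channel that helps to set the resting potential of neurons. Its large auxiliary proteins UNC79 and UNC80 hold the channel complex together. Grid1 encodes GluD1, a delta-type glutamate receptor that organises synapses by binding cerebellins, which in turn bind neurexins. Dnajc6 encodes auxilin, which recruits the chaperone Hsc70 (gene Hspa8) to strip clathrin from vesicles in nerve terminals. Gak encodes its widely expressed relative, cyclin G-associated kinase. Ptchd4 and Ptchd1 encode membrane proteins with a patched domain, related to the Hedgehog receptor Ptch1. PTCHD1 is known in humans as an X-linked gene of intellectual disability and autism.

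Promoters are shown for the complex subunits Unc79 and Nalcn and for Dnajc6 and Ptchd4, to show where the searched motifs lie in them. RefSeq promoter entries (GRCm38.p6) matched 7 of the 8 genes, all but Grid1, with 9 entries. Sequences are the 250 bases before the RefSeq start, cut where an annotated exon of the gene begins, in the direction of transcription. Capitals mark the motifs found among 8 searched on both strands. The general promoter elements searched were the GC box, spelled GGGCGG, and the upstream element CCAAT. The box bound by the TATA-binding protein was searched as TATAAA. The core of the cyclic AMP response element was searched as TGACG. The E-boxes were a form of myogenic and neural bHLH factors, CAGCTG, and a form bound by Snail and ZEB repressors, CACCTG. Last came the left part (TTCAGCACC) and the right part of the RE1 element bound by the repressor REST. The Unc79 run lies at chr12:102948609-102948858 (plus strand), the Nalcn run at chr14:123627145-123627394 (minus strand), the second Dnajc6 entry at chr4:101550344-101550479 (plus strand) and the second Ptchd4 entry at chr17:42316350-42316599 (plus strand).
Unc79: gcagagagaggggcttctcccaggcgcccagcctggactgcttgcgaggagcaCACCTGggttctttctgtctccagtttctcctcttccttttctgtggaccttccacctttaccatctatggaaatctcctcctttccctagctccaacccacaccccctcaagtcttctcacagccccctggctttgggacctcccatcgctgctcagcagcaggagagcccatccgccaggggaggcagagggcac
Nalcn: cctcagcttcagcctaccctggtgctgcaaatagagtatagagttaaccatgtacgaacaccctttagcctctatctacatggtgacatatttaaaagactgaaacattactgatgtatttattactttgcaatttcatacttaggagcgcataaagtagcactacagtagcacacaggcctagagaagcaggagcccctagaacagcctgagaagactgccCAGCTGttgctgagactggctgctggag
Dnajc6: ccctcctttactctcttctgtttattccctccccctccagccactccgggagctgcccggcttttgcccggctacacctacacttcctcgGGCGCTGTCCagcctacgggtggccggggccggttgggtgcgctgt
Ptchd4: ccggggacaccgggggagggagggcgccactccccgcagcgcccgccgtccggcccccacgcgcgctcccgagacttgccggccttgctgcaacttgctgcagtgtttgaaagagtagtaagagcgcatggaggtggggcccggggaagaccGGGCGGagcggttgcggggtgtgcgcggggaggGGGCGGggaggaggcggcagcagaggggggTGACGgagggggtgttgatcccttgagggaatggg

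The capitals in Unc79 are a single CACCTG, an E-box letter string that 17.2% of all 32851 promoter entries hold. The Nalcn run holds CAGCTG, another E-box form, found in 13.0% of entries. The capitals in Dnajc6 are the right part of RE1 on the opposite strand, present in 32 of the 32851 entries (0.0974%). A GC box and a TGACG of this entry lie nearer to the start, beyond the printed run. In Ptchd4 they are a pair of GC boxes and a TGACG. GC boxes occurred in 32.7% and TGACG in 17.8% of entries. No motif was found for Unc80 or Ptchd1, or in the first entries of Dnajc6 and Ptchd4, while the Gak entry held 2 GC boxes and a TGACG next to the second. The promoters differed in base composition: GC content was 45.2% in Nalcn, 51.2% in Unc80 and 59.6% in Unc79, against 70% in Gak and 81.6% in Ptchd1. The median over all entries was 52.4%. CpG pairs numbered 2 in Nalcn, 4 in Unc79, 25 in Gak and 41 in Ptchd1, against a median of 6. A match here is a description of letters only.

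Library totals ran from 72961324 to 86663359 counts, and 19146 genes passed the filter on low counts and were tested. Hnrnpa2b1, the gene carried by the virus, was at 748 to 789 CPM (counts per 1000000 counts of a library) in the A2B1 libraries and 525 to 605 in the controls. Its log2 fold change was 0.45 (SE 0.09), which edgeR's quasi-likelihood test did not call (adjusted p = 0.0654), while DESeq2 and limma-voom did (0.000113 and 0.0496). On the first principal component (52.8% of the variance) A2B1 library 1 lay farthest from the controls at -107.6, and A2B1 library 2 nearest to them at 18.1. The controls lay between 26.4 and 69.6. Over all tested genes 349 were called at an adjusted p under 0.05 (1.82%), of which 254 were lower (1.33%) and 95 higher (0.496%) in A2B1.

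All 8 genes passed the filter, and every A2B1 library lay below every control library for each of the 8. Over all tested genes 15.5% had groups that did not overlap with A2B1 lower, and 15.1% with A2B1 higher. For the 4 chosen genes this follows from the choice. Ptchd1 reached the filter's level of 0.131 CPM in none of the A2B1 libraries, Unc80 in 1 and Grid1 in 2, so these passed through their control libraries and their lower side was fixed by that. Of the 4 genes that were not chosen for their counts, Unc80, Nalcn and Gak did not pass the test. The p-values of Ptchd1 and Unc80 are read with their filter below. Ordered by log2 fold change, 20 tested genes lay below Grid1, 68 below Dnajc6, 69 below Unc79 and 70 below Ptchd4. Below Ptchd1 lay 158 and below Unc80 351.

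**Figure D1:**
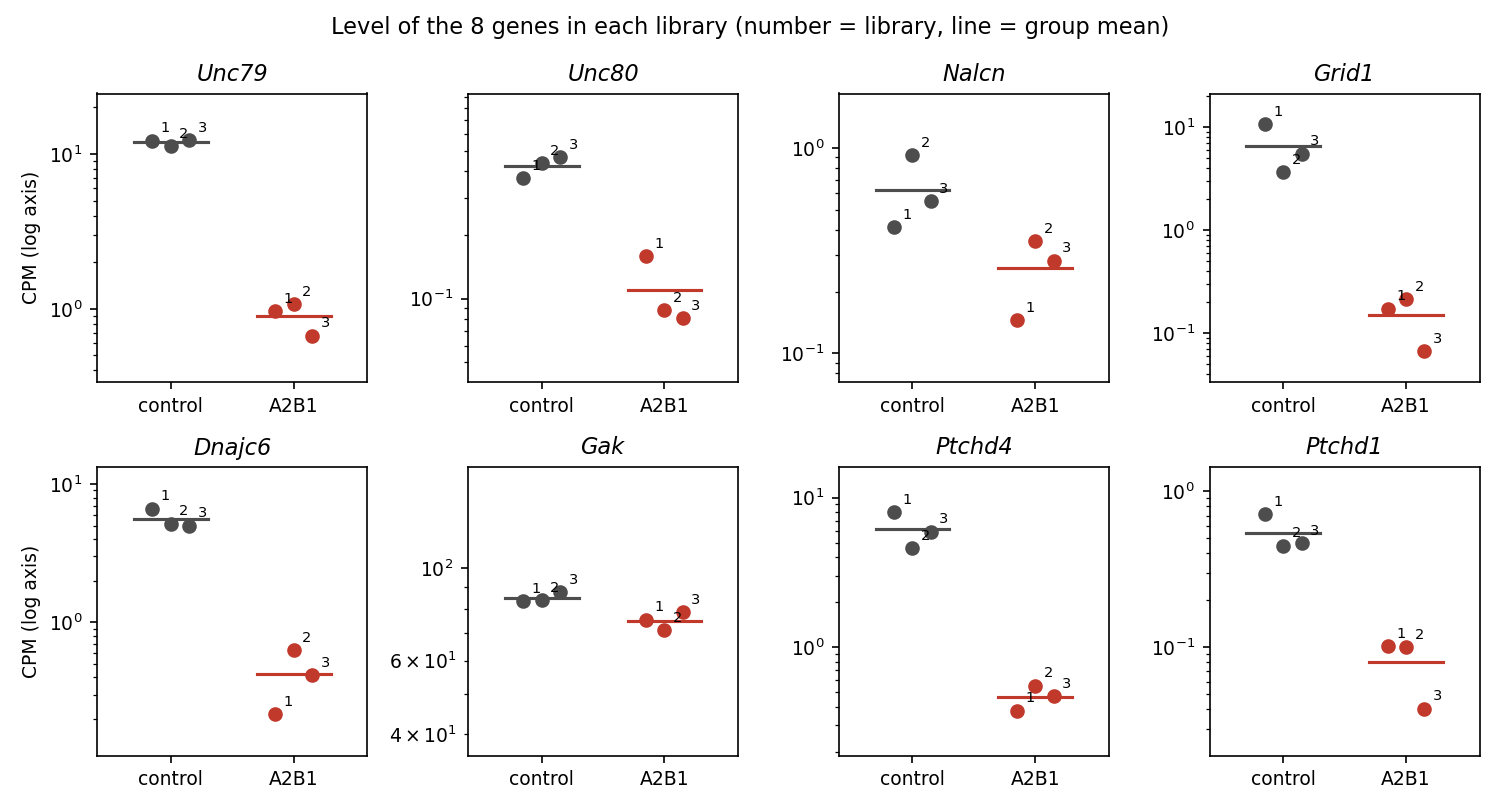
Level of each of the 8 genes in each library, in CPM on a log axis, with the A2B1 and control libraries as separate points numbered by library. The A2B1 points lie below the control points for every gene, with Unc79 at 0.672 to 1.07 against 11.3 to 12.3 CPM and Gak at 71.0 to 78.6 against 83.5 to 87.6 CPM.

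Unc79 (ENSMUSG00000021198) had 67, 85 and 50 counts in A2B1 libraries 1 to 3 and 921, 1006 and 1031 counts in control libraries 1 to 3. In CPM these were 0.970, 1.07 and 0.672 against 12.2, 11.3 and 12.3. The controls were close to each other and each stood far above each A2B1 library. The mean was 0.904 ± 0.207 CPM (SD, n = 3) in A2B1 and 11.9 ± 0.568 CPM (SD, n = 3) in the controls, or 7.58% of the control level. The log2 fold change was -3.72 (SE 0.22). Summed control counts were 13.2 times the summed A2B1 counts after scaling to library size, with an exact 95% interval of 11.4 to 15.2 that covers counting error only.

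Unc79 also varied little among the controls. The control libraries are part of the contrast, so their spread is not independent of it and is given as a description. The coefficient of variation of Unc79 over the 3 control libraries was 4.75%. Among the 4265 tested genes with a control mean of 5 to 20 CPM, a window set after the values were seen, the median was 12.3%, and 13.3% of these genes varied less than Unc79. In the same window 63.5% varied less than Dnajc6 (16.3%), 83.1% less than Ptchd4 (28%) and 95.2% less than Grid1 (54.6%).

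Unc80, whose protein bridges UNC79 and the pore, was close to the detection floor, with 11, 7 and 6 counts in A2B1 and 28, 39 and 39 counts in the controls. The corresponding values were 0.159, 0.0880 and 0.0807 CPM against 0.372, 0.438 and 0.466 CPM. All 3 A2B1 libraries were lower, at a mean of 0.109 ± 0.0434 against 0.425 ± 0.0484 CPM (SD, n = 3 each). The log2 fold change of -1.95 (SE 0.38) missed the threshold in edgeR's quasi-likelihood test (adjusted p = 0.0633). DESeq2, which called 8.29% of all tested genes lower, put its adjusted p at 0.0107, and limma-voom at 0.0443. Only 1 A2B1 library reached the filter's level, so the lower side of Unc80 was fixed by the filter. Its p-values are not read as a result. An exact permutation test over the libraries gave a two-sided p of 0.1, the smallest that 3 against 3 allows, here and for Nalcn, Gak and Ptchd1.

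Nalcn, the pore itself, had 10, 28 and 21 counts in A2B1 and 31, 82 and 46 counts in the controls. This is 0.145, 0.352 and 0.282 CPM against 0.411, 0.920 and 0.549 CPM, so the highest A2B1 library came near the lowest control library. The log2 fold change of -1.26 (SE 0.46) did not pass edgeR's quasi-likelihood test (adjusted p = 0.175). Control counts were 2.42 times the A2B1 counts (exact 95% interval 1.78 to 3.32, counting error only). The 3 subunits thus had log2 fold changes of -3.72, -1.95 and -1.26, and a difference among these was not tested.

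Of 10 genes listed for the NALCN complex and its regulators, 7 were tested. The 6 other than Unc79 had 0 calls in edgeR and 2 called lower by DESeq2 (8.29% of all tested genes). At an unadjusted p under 0.05, 3 were lower and 0 higher. The share over all tested genes, 24.2%, covers both directions, so that of lower genes alone is smaller. Unc80, whose lower side was fixed by the filter, is among the 3 and the 2. The median log2 fold change of the 6 was -0.51, against 0.00 over all tested genes. Src, the kinase that couples receptors to the channel, was at 7.83, 8.02 and 9.64 CPM in A2B1 and had a log2 fold change of -0.66 (SE 0.17), which edgeR did not call (adjusted p = 0.103). Nalf1, a further auxiliary subunit listed under its older name Fam155a, had too few counts to be tested, with 0, 0.138 and 0.0403 CPM in A2B1 and 0.0531, 0.0785 and 0.0597 CPM in the controls. The channels that share NALCN's architecture of 4 linked domains, the voltage-gated sodium and calcium channels, had 16 of 20 members tested, 1 called lower by edgeR, none higher, and 4 called lower by DESeq2, with a median log2 fold change of -0.67. The called gene was Scn8a, the neuronal sodium channel Nav1.6, at 1.33, 0.780 and 1.08 CPM in A2B1 and 7.01, 4.88 and 3.87 CPM in the controls. Scn8a fell by 2.30 on the log2 scale (SE 0.32, edgeR adjusted p = 0.0334), but the call was lost on leaving out any 1 library (0.0589 to 0.128). Scn4a, the sodium channel of skeletal muscle, had a log2 fold change of -2.63 without passing edgeR's test (adjusted p = 0.130). Control library 1 stood at 2.32 CPM against 0.382 and 0.502 CPM in the other controls, and without it the log2 fold change was -1.36.

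The potassium channels that carry the opposing leak current form the 2-pore family. Of 14 listed, 7 were tested, 0 were called by edgeR or by DESeq2, and the median log2 fold change was 0.22. At an unadjusted p under 0.05, 2 were higher and 0 lower, against 24.2% of all tested genes in both directions together. They were Kcnk4 with a log2 fold change of 1.40 (edgeR adjusted p = 0.166) and Kcnk3, the TASK-1 channel, with 0.31 (adjusted p = 0.180). Kcnk4 was at 0.0796, 0.202 and 0.0717 CPM in the controls, mostly under the filter's level of 0.131 CPM. In A2B1 it was at 0.277 to 0.362 CPM. It thus passed the filter through its A2B1 libraries, its higher side was fixed by that, and its p is not read as a result.

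Grid1 (GluD1) had 12, 17 and 5 counts in A2B1 and 805, 327 and 467 counts in the controls. This is 0.174, 0.214 and 0.0672 CPM against 10.7, 3.67 and 5.58 CPM. Control library 1 was far above the other controls, yet even the lowest control stood well above all A2B1 libraries. The mean was 0.152 ± 0.0758 CPM in A2B1 and 6.64 ± 3.63 CPM in the controls (SD, n = 3 each), or 2.31% of the control level. The log2 fold change of -5.44 (SE 0.62) was the most negative of the 8. Control counts were 42.2 times the A2B1 counts (exact 95% interval 30.1 to 61.2, counting error only).

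Of the 10 delta receptors, cerebellins and neurexins listed, 4 were tested, Grid1 among them. The cerebellins Cbln1 to Cbln4, the ligands of GluD1, had too few counts to be tested. Among 16 other ionotropic glutamate receptor genes 9 were tested and 0 were called by edgeR or DESeq2, with 0 at an unadjusted p under 0.05. Gria4 and Grin2d, subunits of the AMPA and NMDA types, had the smallest p, at log2 fold changes of -0.50 and -0.53 (edgeR adjusted p = 0.303 and 0.320).

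Dnajc6 (auxilin) had 15, 50 and 31 counts in A2B1 and 501, 460 and 418 counts in the controls. In CPM these were 0.217, 0.629 and 0.417 against 6.65, 5.16 and 4.99. The A2B1 libraries differed more from each other, relative to their level, than the controls did, and no A2B1 library came near a control. The mean was 0.421 ± 0.206 against 5.60 ± 0.911 CPM (SD, n = 3 each), or 7.57% of the control level, and the log2 fold change was -3.72 (SE 0.42).

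Gak, the widely expressed counterpart, had 5202, 5643 and 5843 counts in A2B1 and 6290, 7478 and 7337 counts in the controls. This is 75.3, 71.0 and 78.6 CPM against 83.5, 83.9 and 87.6 CPM. The groups did not overlap, at 74.9 ± 3.81 against 85.0 ± 2.29 CPM (SD, n = 3 each), with A2B1 at 88.2% of the control level. The log2 fold change of -0.18 (SE 0.07) did not pass edgeR's test (adjusted p = 0.192). Per kilobase of exon, Gak stood far above Dnajc6 in both groups, at 13.2 ± 0.356 against 0.948 ± 0.154 CPM per kb in the controls and 11.6 ± 0.591 against 0.0712 ± 0.0348 CPM per kb in A2B1 (SD, n = 3 each).

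Of 24 genes of the clathrin coat and its uncoating, 23 were tested. Of the 22 other than Dnajc6, 0 were called by edgeR, and DESeq2 called 2 lower (8.29% of all tested genes). At an unadjusted p under 0.05, 6 were lower and 0 higher. The share over all tested genes, 24.2%, covers both directions, so that of lower genes alone is smaller. The median log2 fold change of the 22 was -0.17. Ap2a1, a subunit of the plasma membrane adaptor AP2, had the smallest p among them, with a log2 fold change of -0.30 (SE 0.07, edgeR adjusted p = 0.0966). Hspa8, the chaperone that auxilin recruits, ranged from 476 to 905 CPM in A2B1 and was not called (log2 fold change 0.15, edgeR adjusted p = 0.716). Of 17 genes of synaptic vesicle endocytosis, 16 were tested and 0 were called by edgeR, with 3 lower at an unadjusted p under 0.05 and 3 called lower by DESeq2. Synj2, a phosphoinositide phosphatase, had a log2 fold change of -0.66 (edgeR adjusted p = 0.0505) and the dynamin gene Dnm3 had -0.84 (adjusted p = 0.0655).

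Ptchd4 had 26, 44 and 35 counts in A2B1 and 603, 408 and 495 counts in the controls. This is 0.376, 0.553 and 0.471 CPM against 8.0, 4.58 and 5.91 CPM. Control library 1 was highest, as for Grid1 and Dnajc6, and A2B1 lay far below in all libraries. The mean was 0.467 ± 0.0885 against 6.16 ± 1.73 CPM (SD, n = 3 each), or 7.61% of the control level, with a log2 fold change of -3.72 (SE 0.30).

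Ptchd1, on the X chromosome, was rare in both groups, with 7, 8 and 3 counts in A2B1 and 54, 40 and 39 counts in the controls. The values were 0.101, 0.101 and 0.0403 CPM against 0.717, 0.449 and 0.466 CPM. All controls were higher, with means of 0.544 ± 0.150 against 0.0808 ± 0.0350 CPM (SD, n = 3 each). The log2 fold change was -2.73 (SE 0.45) with an edgeR adjusted p of 0.0452. As no A2B1 library reached the filter's level, its lower side was fixed by the filter and the p is not read as a result. It also missed the threshold without the filter on low counts (adjusted p = 0.0571) and on leaving out any 1 library (0.0808 to 0.136).

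Of 13 patched-domain and sterol-sensing genes, 10 were tested. The 9 other than Ptchd4 had a median log2 fold change of -0.07. At an unadjusted p under 0.05, 2 were lower, of which Ptchd1 was 1, and 0 higher. Over all tested genes 24.2% had such a p, both directions together. Ptch1, the Hedgehog receptor itself, was at 47.9, 18.7 and 20.0 CPM in A2B1 and 44.2, 45.6 and 47.5 CPM in the controls, so A2B1 library 1 lay above all controls and the other A2B1 libraries well below them (edgeR adjusted p = 0.332). Of 15 Hedgehog signalling genes 14 were tested and 0 were called by edgeR. At an unadjusted p under 0.05, 2 were lower and 0 higher, and DESeq2 called 1 lower (8.29% of all tested genes). Boc, a Hedgehog co-receptor, came nearest, with a log2 fold change of -0.81 (edgeR adjusted p = 0.0537), and Dhh, a Hedgehog ligand of Schwann cells, had -0.73 (adjusted p = 0.197).

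**Figure D2:**
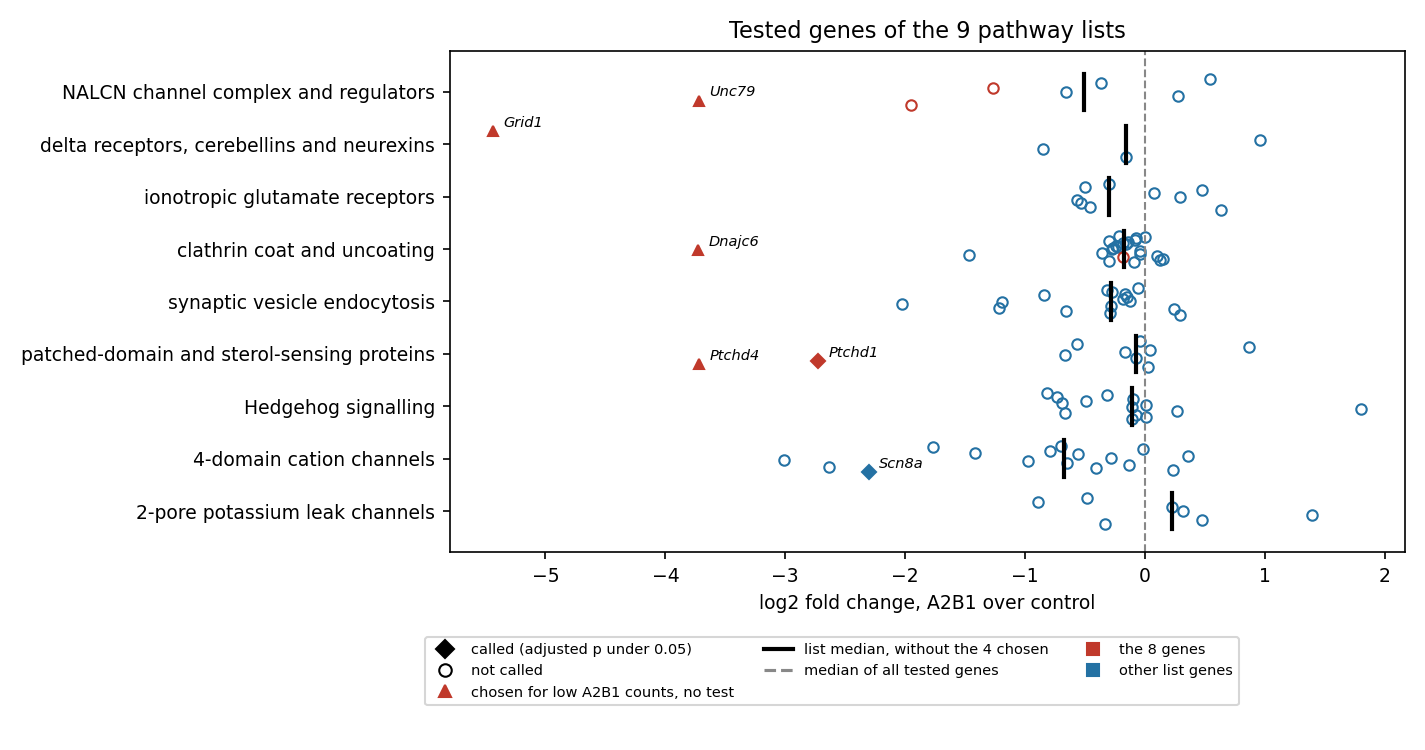
Log2 fold change (A2B1 against control) of every tested gene in each of the 9 pathway lists, with the median of each list (without the chosen genes) as a bar. Triangles are the 4 genes chosen for low A2B1 counts, which have no test, and diamonds the called genes Ptchd1 and Scn8a. The call of Ptchd1 is not read as a result, as its lower side was fixed by the filter. Most other points lie closer to 0, as with the 2-pore channel median of 0.22.

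In the plot of the lists, the 4 chosen genes lie at the low end by their choice, and Scn8a lies among other 4-domain channels that are as low without a call. Over all 9 lists, 136 genes were listed and 104 tested. Without the 4 chosen genes 100 remain, of which 2 (Ptchd1 and Scn8a, 2%) were called against 1.82% of all tested genes. An unadjusted p under 0.05 was found for 25% against 24.2%. Ptchd1, Unc80 and Cacna1b, all in the 25%, passed the filter through their controls, and Kcnk4, also in it, through its A2B1 libraries. Of the calls only that of Scn8a is read. With both directions together the lists thus stood near the background. Over all tested genes, the share at that p was not split by direction. Counts by direction therefore have no background. Genes with an unadjusted p under 0.05 were higher only in the 2-pore list (2, Kcnk4 among them) and the delta receptor list (1). Without the chosen genes, medians were negative in every list but the 2-pore one (0.22). The negative medians ran from -0.67 to -0.07, against 0.00 over all tested genes. The lists were drawn up with earlier results of these data known, so these counts are a description.

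**Figure D3:**
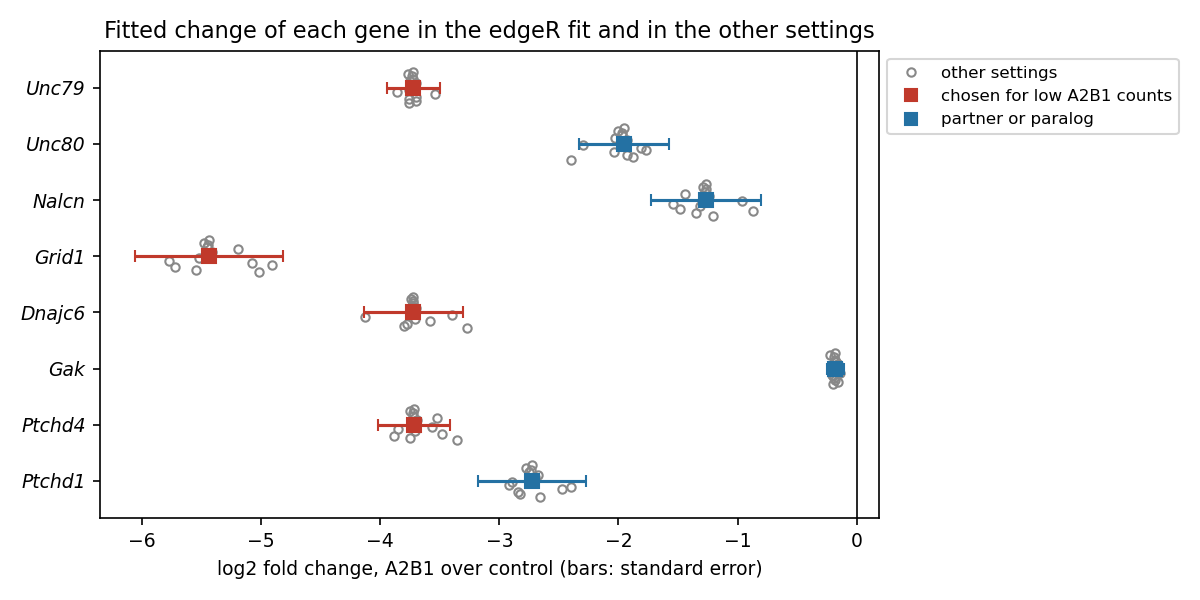
Log2 fold change (A2B1 against control) of the 8 genes with standard errors, under edgeR as described and under each alternative setting. Squares with bars are the edgeR fit and open circles the other settings. All values are below 0, and Unc79, Dnajc6 and Ptchd4 each have -3.72 in the edgeR fit.

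As the plot of fold changes shows, direction did not depend on the scaling, filter or test used, on leaving out any 1 library, or on leaving out A2B1 library 1 and control library 1 together, a setting chosen after seeing the data. Over all of these Unc79 ranged from -3.86 to -3.54, Grid1 from -5.77 to -4.91, Dnajc6 from -4.13 to -3.27 and Ptchd4 from -3.89 to -3.35. The partners ranged from -2.92 to -2.40 for Ptchd1, -2.40 to -1.77 for Unc80, -1.54 to -0.87 for Nalcn and -0.22 to -0.14 for Gak.

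Levels were ranked per kilobase of exon. In the controls Gak came first at 13.2 CPM per kb, then Ptchd4 at 1.37 ± 0.383, Grid1 at 1.11 ± 0.608, Dnajc6 at 0.948 ± 0.154 and Unc79 at 0.837 ± 0.0398 CPM per kb (SD, n = 3). Within the run from Ptchd4 to Unc79, neighbours in the order did not differ beyond their spread. Ptchd1 followed at 0.181 ± 0.0499, then Nalcn at 0.0426 ± 0.0179 and Unc80 at 0.0295 ± 0.00336 CPM per kb, where the spreads of the last pair overlapped. Thus in control fat the auxiliary gene Unc79 was read far more often per kilobase than the pore gene Nalcn, at 0.837 against 0.0426 CPM per kb. In A2B1 the corresponding levels were 0.0634 ± 0.0145 for Unc79 and 0.0177 ± 0.00717 CPM per kb for Nalcn. Grid1, second after Ptchd4 among the low genes in the controls, was at 0.0254 ± 0.0127 CPM per kb in A2B1, about the level of Ptchd1 there (0.0269 ± 0.0117).

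The 8 genes lie on 7 chromosomes (mm10, GENCODE M21). Unc79 spans chr12:102948859-103184065 on the plus strand, Unc80 chr1:66468367-66699148 (plus), Nalcn chr14:123276634-123627144 (minus) and Grid1 chr14:34820108-35583379 (plus). Dnajc6 spans chr4:101496648-101642799 (plus), Gak chr5:108569411-108629755 (minus), Ptchd4 chr17:42315947-42505077 (plus) and Ptchd1 chrX:155573455-155623814 (minus). All are longer than the median span of 23.8 kb among 15049 tested protein-coding genes, from 50.4 kb for Ptchd1 to 763 kb for Grid1. A shorter span was found for 96.0% of those genes in the case of Unc79 (235 kb), 99.6% for Grid1, 91.9% for Dnajc6 (146 kb) and 94.4% for Ptchd4 (189 kb). When tested protein-coding genes were split by span into 4 groups of equal size, after the values were seen, 32 of 3763 genes were called lower in the group of shortest genes (0.850%) and 91 of 3762 in that of the longest (2.42%). The groups between had 1.54% and 1.57%.

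Annotated exons of Unc80, Nalcn, Dnajc6 and Ptchd4 share no base with another gene's exons. Unc79 shares 84 bases with Gm27976, Grid1 91 bases with Gm27617 and Gak 199 bases with Gm43365, each on the same strand, and Ptchd1 shares 210 bases with the antisense gene Gm15156. Since the strand setting and the treatment of shared reads are not stated by the labels or headers, the counts of these 4 genes are uncertain to that extent. The overlapping genes themselves had at most 4 counts in any library, except Gm43365 with 16 to 36.

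**Figure D4:**
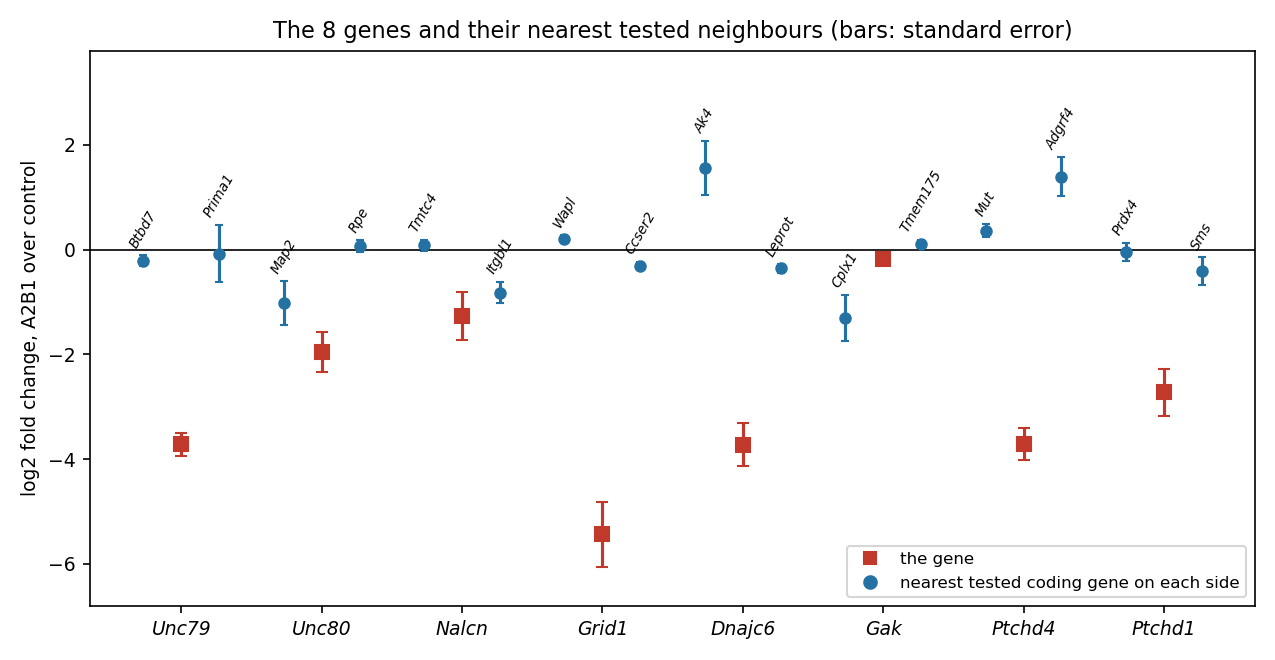
Log2 fold change (A2B1 against control) of each of the 8 genes and of the nearest tested protein-coding gene on either side. None of the 16 flanking genes was called, and they range from -1.31 to 1.56.

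Flanking genes were taken whatever their distance, which ran from 0.015 kb (Tmem175 from Gak) to 1820.041 kb (Sms from Ptchd1). Of the 16 nearest tested protein-coding genes, 0 were called by edgeR or by limma-voom, 9 had an unadjusted p under 0.05 (24.2% of all tested genes did), and DESeq2 called 5, of which 3 were lower and 2 higher (15.2% of all tested genes in either direction). Their median log2 fold change was -0.06, with 9 negative and 7 positive. Beside Unc79, Btbd7 was at -0.21 and Prima1, the membrane anchor of acetylcholinesterase, at -0.07. Beside Dnajc6, Ak4, an adenylate kinase of mitochondria, was at 1.56 (edgeR adjusted p = 0.158) and Leprot, 4.919 kb away, at -0.35 (adjusted p = 0.0834). On the sides of Grid1, Wapl, a cohesin release factor 72.1 kb away, was at 0.20 and Ccser2, 1292 kb away, at -0.30. On those of Ptchd4, the methylmalonyl-CoA mutase gene Mut (1354 kb) was at 0.37 and the receptor gene Adgrf4 (152 kb) at 1.39. The value of -1.31 was that of Cplx1, which encodes a complexin of synaptic release and lies next to Gak (adjusted p = 0.157).

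Profiles over the 6 libraries were compared by the root mean square difference of log2 CPM (prior count 2), after centring each gene, as a description. Dnajc6 and Ptchd4 differed by 0.306, and Unc79 and Ptchd4 by 0.313. Unc79 was farther from its own partners, at 1.00 from Unc80 and 1.37 from Nalcn. Because the prior count shrinks the differences of rare genes, these distances also depend on the low levels of Unc80 and Nalcn. Unc80 and Ptchd1, both rare, were 0.517 apart, while Dnajc6 and its paralog Gak were 1.85 apart.

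Other genes with a similar course were picked out by the same measure. Nearest to Unc79 over the 6 libraries were Fmn1, an actin-nucleating formin (0.289), Mageb18 (0.324), Sez6l, a neuronal membrane protein of the seizure-related 6 family (0.336), Gsdma2 of the gasdermin family (0.418) and Tekt1, a tektin of ciliary microtubules (0.446). Sez6l was also among the 3 nearest to Dnajc6 (0.345) and to Ptchd4 (0.333), with mean levels of 1.19 CPM in A2B1 and 11.4 CPM in the controls. Dnajc6 was nearest to Ina, the neuronal intermediate filament internexin alpha (0.338), followed by Sez6l and by Evi2 (0.414). Ptchd4 was nearest to Mageb18 (0.267), followed by Sez6l and by Oxtr, the oxytocin receptor (0.372), with means of 6.21 CPM in A2B1 and 75.1 CPM in the controls. Grid1 was nearest to Slc5a7, the choline transporter of cholinergic neurons (0.289), with means of 1.73 and 55.9 CPM. Pkp1, a plakophilin of desmosomes (0.393), and Sptlc3, a subunit of serine palmitoyltransferase (0.585), came next. Gsdma2 and Sptlc3 had 0 counts in all A2B1 libraries. Mageb18 was near the floor, at means of 0.00419 CPM in A2B1 and 0.301 CPM in the controls (log2 fold change -5.64). Gsdma2 was at 0 and 0.196 CPM (-6.96). The prior count shrinks the differences of such rare genes, so both rank near Unc79 despite more negative fold changes.

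**Figure D5:**
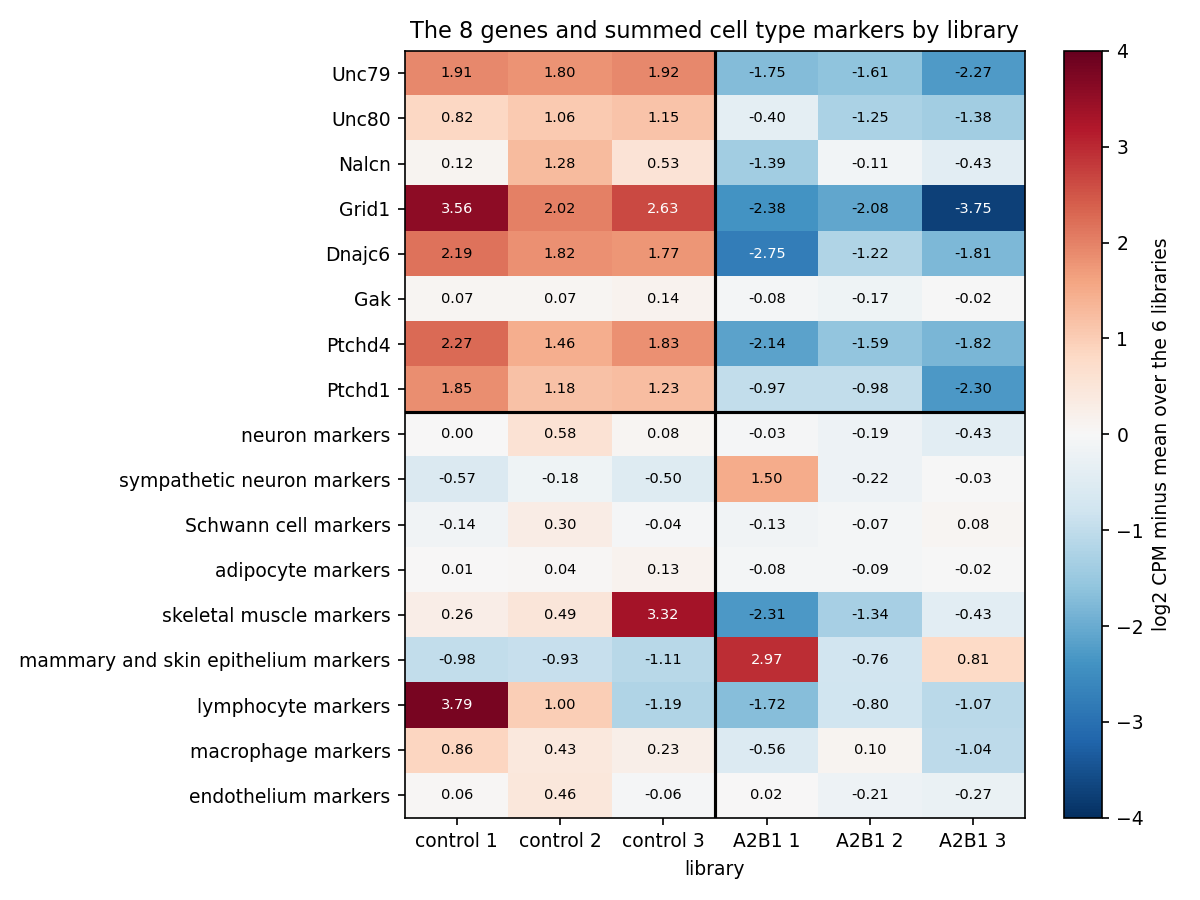
Heat map of log2 CPM minus the mean over the 6 libraries, for the 8 genes (upper rows) and the summed markers of 9 cell types (lower rows), with control libraries at left and A2B1 at right. Unc79 is at 1.80 to 1.92 in the controls and at -2.27 to -1.61 in A2B1, whereas lymphocyte markers peak in control library 1 (3.79) and muscle markers in control library 3 (3.32).

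In bulk tissue, fewer cells of a type and less RNA per cell cannot be told apart, so levels of other cell types' markers are given beside these results. The summed CPM of 14 neuron markers, all detected, was 7.92 to 10.5 in A2B1 and 10.7 to 16 CPM in the controls. This sum was lower in every A2B1 library, as were those of adipocyte, skeletal muscle and macrophage markers. The sum for mammary and skin epithelium was higher in each, and the other sums overlapped between groups. None of the 10 tested neuron markers was called by edgeR. At an unadjusted p under 0.05, 3 were lower and 0 higher, against 24.2% of all tested genes in both directions together. Nefh, among the 3, was at 0.0724, 0.0880 and 0.0403 CPM in A2B1, under the filter's level of 0.131 CPM. It passed through its controls, so its lower side was fixed by the filter. The highest of the neuron markers was Stmn2, a growth-associated protein, at a mean of 3.77 CPM, and Rbfox3 (NeuN) was at 0.0755 to 0.175 CPM. Sympathetic neuron markers summed to 3.69 to 12.1 in A2B1 and 2.88 to 3.78 CPM in the controls. The defining marker Dbh, the enzyme that makes noradrenaline, was at 0 counts in all 6 libraries, and 6 of the 8 markers were detected, led by Slc18a2 (log2 fold change 0.01). Ddc, which makes dopamine, gave 9.73 of the 12.1 CPM in A2B1 library 1, and its groups overlapped. Schwann cell markers overlapped between groups, at 224 to 259 and 223 to 301 CPM, led by Pmp22. Adipocyte markers, which check the labelled tissue, were abundant, at 27211 to 28618 CPM in A2B1 and 29220 to 31788 CPM in the controls, led by Fabp4. Single markers moved both ways. Lep, the leptin gene, and Cidec, a lipid droplet protein, were called lower by edgeR (log2 fold changes -1.90 and -0.62, adjusted p = 0.0166 and 0.0497), with the call of Cidec lost on leaving out any 1 library and that of Lep on 4 of the 6 omissions. Retn and Plin1 were higher in every A2B1 library (0.56 and 0.51) without passing edgeR's test (adjusted p = 0.103 and 0.129).

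Skeletal muscle markers summed to 3.87 to 14.2 CPM in A2B1 and 23.0 to 191 CPM in the controls, led by Acta1. Pvalb, a calcium buffer of fast muscle and of some neurons, was at 0 in all A2B1 libraries and at 2.85, 2.19 and 7.87 CPM in the controls. Its edgeR call (adjusted p = 0.0402) was lost on leaving out any 1 library (0.0535 to 0.127). Pvalb passed the filter through its controls, so its lower side was fixed by that and the call is not read as a result. Lymphocyte markers summed to 4.89 to 9.22 and 7.07 to 222 CPM, with control library 1 highest. Unc79 was at 11.3 to 12.3 CPM over those same controls, nearly level while the muscle and lymphocyte sums varied widely. Grid1, Dnajc6 and Ptchd4, in contrast, were each highest in control library 1. Macrophage markers summed to 242 to 534 in A2B1 and 584 to 905 CPM in the controls (led by Lyz2), and endothelial markers to 698 to 850 and 808 to 1154 CPM (led by Cdh5). Mammary and skin epithelium markers, led by Krt18, reached 40.8 CPM in A2B1 library 1 against 2.41 to 2.75 CPM in the controls, with Csn3 and Krt14 at 0 throughout. The part of these cell types in the levels of the 8 genes was not tested.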

How the data were processed

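Per the labels' protocols, frozen fat was extracted with Trizol, and an Illumina TruSeq RNA kit served for library preparation. Bowtie and mm10 are named, without version or role, in the submitters' processing notes. Neither labels nor headers state the counting program, annotation release or strand setting. Per the file headers, the authors deposited raw read counts (whole numbers, unscaled) for 52550 genes and 6 libraries. The values 1, 2, 3 and 4 occur 8211, 6699, 7257 and 3493 times, an uneven course that may come from shared reads or rounding. Columns of other samples numbered 0.

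The 19146 genes kept by edgeR's filterByExpr were tested in R 4.3.3 with edgeR 4.0.16 (quasi-likelihood F test, robust fit, TMM factors 0.917 to 1.03, two-sided). Benjamini-Hochberg adjustment covered all tested genes, and an adjusted p under 0.05 was called. They held at least 99.9% of each library's counts. The biological coefficient of variation was 33.6%. CPM values use TMM-scaled library sizes, and depths of 72961324 to 86663359 counts set their precision. Ratios of summed counts have exact 95% Clopper-Pearson intervals, which cover counting error only. The closest libraries, control 2 and 3, still differed by 63.3 times counting noise (chi-square per degree of freedom), so none was a copy. For 91 repeated symbols the ID with most counts was used.

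Groups came from the labels' treatment. The members and lists were chosen with earlier results of these data known. Named were the 8 members, up to 4 called genes of each pathway list or else the 2 lowest in p, markers at 0 or highest of each marker list, flanking genes, and the 5 genes nearest Unc79 and 3 nearest Grid1, Dnajc6 and Ptchd4 in profile, placeholder symbols left out. Nalf1, the cerebellins, Hspa8, Ptch1, Ddc, Lep, Cidec, Retn, Plin1 and Pvalb were added after values were seen. Results for some genes that the rule names are not reported here. Other scalings (size factors of DESeq2, plain library totals, upper quartiles), other tests (DESeq2 1.42.0, limma-voom in limma 3.58.1), other filters (none, or a CPM of 1 or more in 3 libraries), a threshold of 0.1 and leaving out each library were tried. The code was tested on simulated data.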

Additional observations from a re-analysis of the deposited data

How the results depend on the processing

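Genes called numbered 349 in edgeR, 2919 in DESeq2 and 1270 at an adjusted p of 0.1. Of the 4 partners 1 (Ptchd1) was called in edgeR. DESeq2, limma-voom and an adjusted p of 0.1 each called 2 (Ptchd1 and Unc80). The lower side of both was fixed by the filter, so these calls are not read as a result. Called partners numbered 0 without a filter and 0 with CPM of at least 1 in 3 libraries, which removes Unc80, Nalcn and Ptchd1. Of the pathway genes, the 4 chosen ones included, 6 were called in edgeR, 19 in DESeq2, 10 in limma-voom and 12 at an adjusted p of 0.1. Library totals gave 49 higher and 251 lower genes (16.3% higher) against 95 and 254 (27.2%) with TMM factors.

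Leaving out 1 library left 10 to 57 genes called, 1 to 3 of the 8 members (5 with all libraries, a count that holds the 4 genes chosen on this contrast and tests nothing about them), 0 partners (lowest 0, highest 0) and 1 to 3 pathway genes. Leaving out A2B1 library 1 and control library 1 together, an alternative chosen after seeing the data, left 7 genes called, with 0 members, 0 partners and 0 pathway genes. The fewer libraries are part of each of these settings. The direction of the 8 members was the same in all settings that tested them. With groups that did not overlap, leaving out libraries could hardly turn it. Over single-library omissions the log2 fold change turned sign for Prdx4 (-0.24 to 0.0669, with 0.06 without A2B1 library 2 and 0.02 without control library 1), Prima1 (-0.47 to 0.29, with 0.22 without control library 2) and Rpe (-0.0166 to 0.13), none of them called; the cause was not tested. No paired analysis was possible because the labels give the groups no shared replicate numbers. Depth limits Ptchd1, Unc80 and Nalcn, with at most 82 counts in a library.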

Other observations

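Among the listed genes with too few counted libraries to be tested, Cacna1i, a T-type calcium channel, was at 6.55, 0.606 and 0.0597 CPM in control libraries 1 to 3 and at 0.0377 to 0.130 CPM in the A2B1 libraries, so the groups overlapped. Snap25, a synaptic vesicle fusion protein, was lower in every A2B1 library, with a log2 fold change of -2.02 that edgeR did not call (adjusted p = 0.159). Scn7a, a sodium channel of the same 4-domain family that is present in Schwann cells, had the highest level of its list, at a mean of 247 CPM in A2B1 and 210.2 CPM in the controls, and was not called (log2 fold change 0.23, edgeR adjusted p = 0.430). These genes were picked after their values were seen.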
